A study of Allium mongolicum with 12 samples.

Results

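A set of 160 transcripts of Allium mongolicum roots stood highest at 48 h of saline-alkali stress. They were selected to lie within 2-fold of the unstressed level at 24 h and 72 h. They were chosen from 98328 assembled transcript features by their own levels in all 12 libraries. A feature belonged when its mean was at least 1 CPM (counts scaled to a common library total) in each of the 0 h, 24 h and 72 h groups, when all 3 of its 48 h libraries exceeded all 9 others, when its 48 h mean was at least 1.5 times the highest other mean, and when its 24 h and 72 h means lay within 2-fold of the 0 h mean. The selection allowed at most 200 features, and no feature was dropped for that reason. Every level at 48 h relative to the other times was therefore used in the choice and is given below as a description. Counts of members called at 48 h by a test across all features stand beside the same share over all features, and nothing is read from them.

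Allium mongolicum is a wild onion of dry steppe. The plants had been germinated for 7 days, grown in soil for 45 days at 25 °C and kept in diluted Hoagland solution for 7 days. Control roots (CK) were taken at 0 h. Stressed roots, called T24, T48 and T72 by their 24, 48 or 72 h of exposure, stood in a solution of sodium chloride, sodium sulfate, sodium bicarbonate and sodium carbonate mixed 1:9:9:1 at 150 mmol/L in total. Each group had 3 libraries drawn from 20 seedlings. The labels do not say how seedlings were divided among libraries, so calls made by the tests below rest on a between-library spread that may be purely technical. The 3 T24 libraries were the most alike, and none of the groups is of unstressed roots at 24, 48 or 72 h, so that stress and elapsed time cannot be told apart.

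Salt stress confronts a root first with a shortage of available water and then with a build-up of sodium, and bicarbonate and carbonate add a high pH that hampers the uptake of iron and phosphate. Roots answer in phases: early signalling and stress genes often rise and subside, while adjustments of ion transport, osmolytes and cell walls follow. The features described here were selected for a single high time point. The file gives assembly IDs in place of gene names, so neither the function of the 160 features nor the identity of the tissue could be checked by marker genes, and no sequences were used here. In whole roots, more cells of a type and more RNA per cell cannot be told apart.

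Library totals ran from 23099287 to 26388120 counts, at which 3 counts equal 0.114 to 0.13 CPM. One 48 h library stood closer to the CK libraries than the other 48 h libraries did, which is given before any result is read. Across 33063 features with means of at least 1 CPM in CK, T24 and T72, log2(CPM + 1) of T48 replicate 2 correlated at 0.933 on average with the CK libraries and at 0.91 with the other 48 h libraries. T48 replicates 1 and 3 correlated with each other at 0.938, and with the CK libraries at 0.895 and 0.897 on average. Each 48 h library stood on average closer to the T24 libraries than to the other 48 h libraries. With the T24 libraries, T48 replicates 1, 2 and 3 correlated at 0.928, 0.925 and 0.937 on average. With the other 48 h libraries they correlated at 0.924, 0.91 and 0.925, lower in each case. The averages of replicates 1 and 3 include replicate 2, with which they correlated at 0.91 and 0.911. With each other, at 0.938, replicates 1 and 3 stood above their averages with T24. These correlations across features describe the libraries and are no test.

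Few features had this time course. Of the 33063 features at the 1 CPM floor, 564 (1.71%) had their 3 T48 libraries above all 9 others. Among these 564, 192 also reached 1.5 times the highest other mean, and 160 (0.484% of the 33063) also stayed within 2-fold of CK at 24 h and 72 h. Only 32 features met everything except the return to CK, and 354 met everything except the ratio. Another 269 met everything except the floor. The members closest to the ratio threshold had values of 1.501, 1.51 and 1.511, and the closest features outside had 1.499, 1.495 and 1.492, so the edge of the set is not a gap in the data. The same rule with another time as the peak was met by more features, with 366 at CK (T24 standing in for CK in the return), 247 at T24 and 364 at T72. With 1 library of the peak time left out, the count was 290 to 655 at T48 and 470 to 686 at CK. It was 304 to 310 at T24 and 443 to 680 at T72, so the order of the times depended on the library left out. The mirrored rule, a dip at 48 h, was met by 246.

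The 160 members together made up a small part of the root RNA. Their summed level was 1765 ± 174 CPM in CK, 1737 ± 9.41 CPM at T24, 3554 ± 208 CPM at T48 and 1661 ± 170 CPM at T72 (SD, n = 3 each). At T48 the single libraries summed to 3792, 3465 and 3405 CPM in replicates 1, 2 and 3. The 9 other libraries summed to between 1485 and 1895 CPM, so the 48 h libraries do not overlap with them, as the choice of members requires. T48 replicate 2, which resembled the CK libraries over all features, summed to a level between the other 48 h libraries in these 160, each of which had to exceed the 9 others in it. It was the lowest 48 h library in 62 members, replicate 3 in 53 and replicate 1 in 45.

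**Figure D1:**
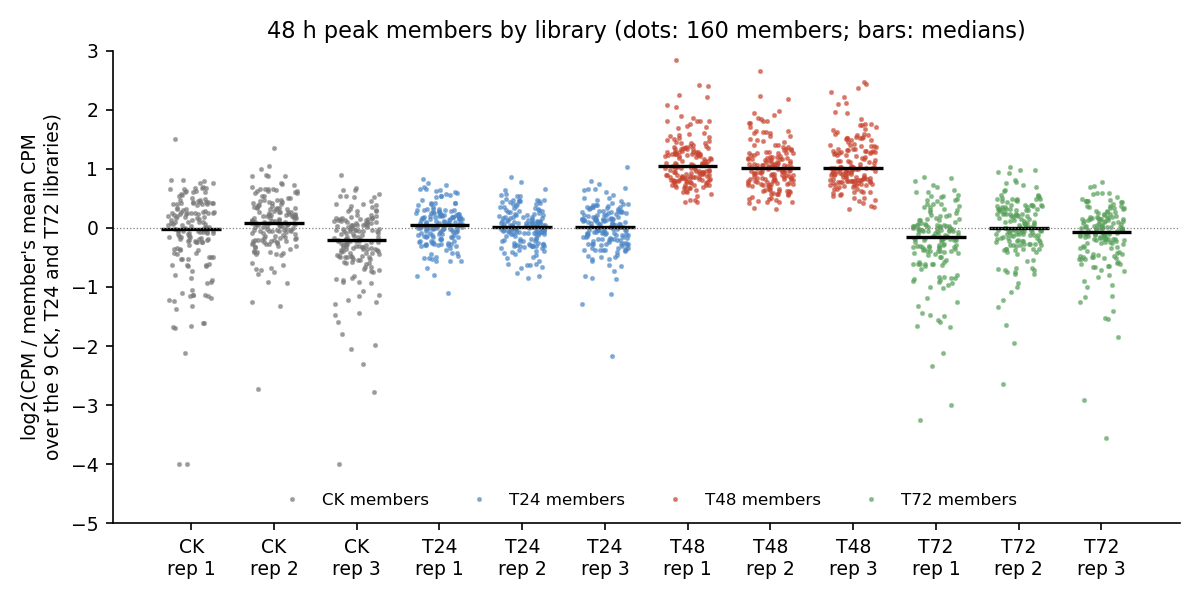
Level of each of the 160 members in each library as log2 of its CPM over its mean CPM in the 9 CK, T24 and T72 libraries, with 1 dot per member and a bar at the median. The 3 T48 medians lie at 1.05, 1.01 and 1.01 and the other medians between -0.21 and 0.08; 3 values below -4 are drawn at -4, and 1 value of 0 is not drawn.

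The typical peak was modest. The T48 mean was 1.76 times the highest other mean at the median, from 1.5 to 3.34. It reached 2 times in 39 members (24.4%) and 3 times in 6. The gap between single libraries was smaller than the gap between means, since the lowest T48 library exceeded the highest of the 9 others by a factor of only 1.19 at the median. In 61 members (38.1%) that factor was under 1.1, and in 12 it was at least 1.5. The highest of the 9 other libraries was a CK library in 70 members, a T24 library in 41 and a T72 library in 49. In 68 members each of the 3 T48 libraries by itself reached 1.5 times the highest other mean.

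The first feature named, TRINITY_DN28770_c1_g1_i1_4, had the largest ratio of all members. Its level was 11.9, 11.4 and 8.64 CPM in the CK libraries, 11.3, 12.4 and 11 CPM at T24, 51.9, 26.2 and 30.6 CPM at T48, and 7.03, 15.3 and 8.73 CPM at T72. The peak was carried by all 3 T48 libraries, the lowest of which was 1.71 times the highest of the other 9. The fitted log2 fold changes of T48 were 1.67 against CK, 1.69 against T24 and 1.84 against T72. The most abundant member at 48 h, TRINITY_DN39758_c0_g1_i3_2, had 146, 127 and 170 CPM in CK, 149, 147 and 141 CPM at T24, 356, 186 and 242 CPM at T48, and 155, 186 and 127 CPM at T72. Here T48 replicate 2, at 186.3 CPM, lay just above T72 replicate 2, at 185.9 CPM. The height of its peak came from T48 replicates 1 and 3, and the fitted log2 fold of T48 against CK was 0.72.

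The other named features were the members that stood lowest relative to CK at 24 h and at 72 h. TRINITY_DN40564_c0_g2_i1_2 had 0.552, 2.64 and 2.67 CPM in CK, 1.02, 0.943 and 1.12 CPM at T24, 2.74, 4.36 and 3.95 CPM at T48, and 1.6, 1.6 and 0.771 CPM at T72. Its T24 mean was 0.525 times the CK mean, yet CK replicate 1 lay below all 3 T24 libraries, and T24 was not called against CK (log2 fold -1.06). TRINITY_DN34091_c0_g1_i4_4 had 5.73, 3.87 and 5.03 CPM in CK, 7.66, 5.4 and 3.98 CPM at T24, 23, 8.34 and 8.23 CPM at T48, and 0.455, 5.39 and 1.49 CPM at T72. Its T72 mean was 0.502 times the CK mean and was not called against CK (log2 fold -1.1). At T48, replicate 1 was far above replicates 2 and 3, and replicates 2 and 3 were only slightly above T24 replicate 1.

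**Figure D2:**
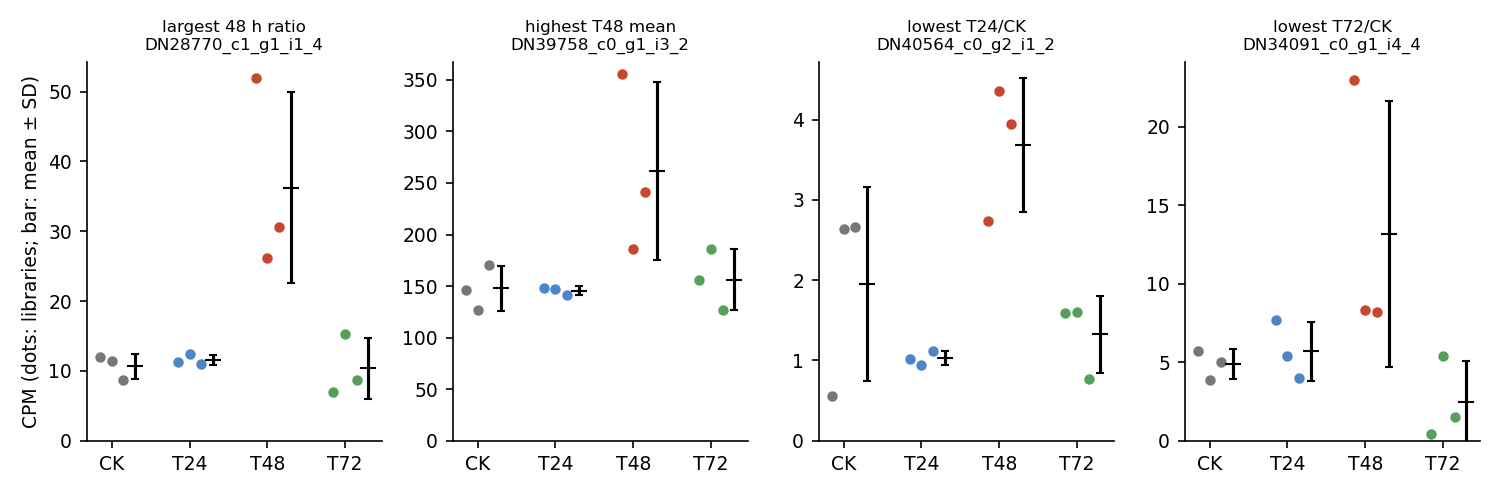
CPM of the 4 named members in the 12 libraries (dots, replicates 1 to 3 from left to right) with the group mean ± SD (n = 3) beside them, on axes that start at 0. The T72 error bar of DN34091_c0_g1_i4_4 (mean 2.44, SD 2.6 CPM) reaches below 0 and is cut there. In DN28770_c1_g1_i1_4 the lowest T48 library is 1.71 times the highest other library, while in DN39758_c0_g1_i3_2 T48 replicate 2 (186.3 CPM) is level with T72 replicate 2 (185.9 CPM).

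Members spanned the range from faint to abundant transcripts. By T48 mean, 31 members lay below 5 CPM, 81 between 5 and 20 CPM, 42 between 20 and 100 CPM and 6 at 100 CPM or more. The lowest class held 19.4% of the members, against 37.8% of all features at the floor, and the highest class held 3.75%, against 5.63%. The rule required a high T48 mean, so the small share of members in the lowest class is in part a product of the choice. In CK the median level was 4.42 CPM in the members and 7.53 CPM over all features at the floor. The median ratio over the highest other mean was nearly the same in the 4 classes, at 1.78, 1.77, 1.73 and 1.74, while the highest ratios were 2.84, 3.34, 3.13 and 2.03. A member had a mean of 231 deposited counts per T48 library at the median and at least 49.2, for which counting alone gives a coefficient of variation of 6.58% at the median and at most 14.3%. For the mean count over the 9 other libraries, counting alone gives 9.49% at the median and at most 19.1%. The observed coefficient of variation between libraries was 27.8% in CK, 10.7% at T24, 19.4% at T48 and 23% at T72 at the median. Over all features at the floor these medians were 25.9%, 9.39%, 27.1% and 18.7% in the same order of times. A rule that needs all 3 of the 48 h libraries to be high favours members with little spread at T48, so the lower value there is part of the choice.

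Away from the peak, the members took several courses inside the 2-fold band. The T24 mean was 1.05 times the CK mean at the median (0.525 to 1.97), and the T72 mean 0.946 times (0.502 to 1.93). Over all features at the floor these medians were 1.06 and 1.1. Both means lay within 1.2-fold of CK in 42 members (26.25%). T24 and T72 were both above CK in 50 members and both below in 54. T24 was above and T72 below CK in 39, and the converse held in 17. T72 was the lowest of the 3 other groups in 67 members, CK in 50 and T24 in 43. The direction at 24 h depended on scaling: the T24 mean exceeded CK in 89 members with CPM from library totals, in 65 with TMM-scaled and in 61 with RLE-scaled library sizes, settings chosen after seeing the data. The T72 mean exceeded CK in 67 members with library totals, in 53 with TMM and in 51 with RLE scaling. In the TMM-scaled edgeR fit the median log2 fold of the members was -0.07 at T24 and -0.22 at T72 against CK, beside 0.08 and 0.06 over all 76273 features tested.

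The rule bounds these flanking differences, so the tests of them are given beside their background only. At T24 against CK, 0 members were called (quasi-likelihood test of edgeR, adjusted p below 0.05), against 4.12% of all features tested. An unadjusted p below 0.05 was reached by 18 members, against 20% of all features. DESeq2 called 4 members lower, against 4.91% of all features. At T72 against CK, 1 member was called, and it fell (2.69% of all features fell). DESeq2 called 12 members lower, against 6.8% of all features, and 1 higher, against 5.26%. In edgeR none was called without a T24 library or T72 replicate 1. Without a T24 library, 1152 to 1160 of all features fell and 794 to 804 rose. Without T72 replicate 1, 610 fell and 500 rose. The member called by edgeR, ranked 110 by the ratio, was singled out after its values were seen. It had 28, 35.8 and 17.3 CPM in CK, 17.3, 18.4 and 14.8 CPM at T24, 47.2, 42.6 and 37.1 CPM at T48, and 12.6, 16 and 13.9 CPM at T72. All 3 T72 libraries lay below all 3 CK libraries, with a log2 fold change of -1.07.

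At 48 h, 19 of the 160 members were called higher than CK (edgeR adjusted p below 0.05), where 0.378% of all 76273 features tested were called higher. Against T24, 48 members were called higher (0.467% of all features), and against T72, 52 (1.31% of all features). All 160 had been chosen for being higher, so nothing is read from these counts beyond how many of such peaks a test across all features calls. The members' median log2 fold was 0.94 against CK, 1.04 against T24 and 1.11 against T72, while over all features tested it was 0.05, 0.03 and 0. The 3 comparisons share the 48 h libraries. The count against CK was 32 without T48 replicate 2, where 1179 of 82262 features were called higher. It was 0 when only the CK and 48 h libraries entered the fit, where 3 of 57993 features were called higher, and 74 with DESeq2 (3.13% of all features). It was 2 to 6 without a T24 library, T48 replicate 1 or 3, or CK replicate 1 or 3. In these fits only 33 to 115 of 81745 to 82523 features were called higher. The count against T24 was 2 to 5 without a T24 library, where 14 to 17 of 82014 to 82176 features were called higher. The count against T72 was 9 without T72 replicate 1, where 153 of 82067 features were called higher.

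Features were also chosen without a 48 h library, and that library was then read. The left-out library is new in this readout, but the 9 libraries it is set against are those that the choice required to be low. Without T48 replicate 1, 290 features met the rule, and replicate 1 was above all 9 libraries of the other times in 156 of them (53.8%), against 15.2% of all features at the floor. Without T48 replicate 3, 316 features met the rule, and replicate 3 was above the 9 in 161 (50.9%), against 15.8% of all features. Without T48 replicate 2, 655 features met the rule, and replicate 2 was above the 9 in only 164 (25.0%), against 10.8% of all features. A choice that needs the 9 others to lie below the 2 kept libraries raises this share above that of all features with no change at 48 h, so nothing is read from the excess over all features. The share was lowest for T48 replicate 2, a difference between libraries that was not tested.

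The size of the peak in the left-out library was smaller than in the libraries that chose it. Left-out T48 replicate 1 was at 1.34 times the highest other mean at the median, where the 2 libraries that made the choice gave 1.78. Left-out T48 replicate 3 was at 1.27 times, against 1.78. Left-out T48 replicate 2 was at 0.902 times, against 1.81 in replicates 1 and 3, and lay above the highest other mean in 271 of the 655 features. It reached 1.5 times in 102 (15.6%), against 4.40% of all features at the floor. Left-out T48 replicate 1 reached 1.5 times in 114 of 290 (39.3%, against 6.68% of all features at the floor). Left-out T48 replicate 3 did so in 111 of 316 (35.1%, against 6.65%). Most features chosen on 2 of the T48 libraries did not reach 1.5 times in the left-out library, whichever it was. The share was lowest for replicate 2, a difference that was not tested. The kept libraries were chosen for a high ratio, so a smaller peak in the left-out library is part of the choice. Nothing is read from that fall. Of the 585 features that met every criterion except that libraries be apart, replicate 2 alone fell short in 230, replicate 3 alone in 84 and replicate 1 alone in 60.

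**Figure D3:**
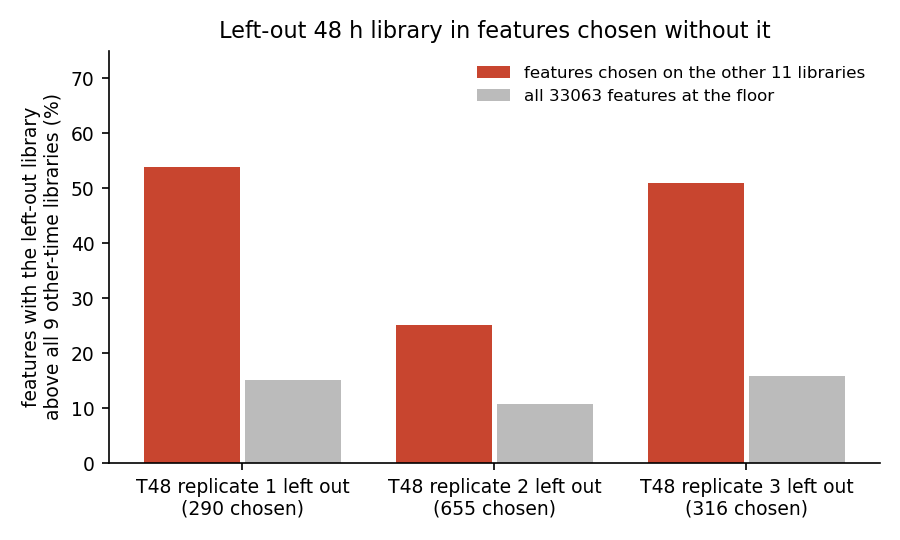
Share of features (%) in which a 48 h library left out of the choice lies above all 9 CK, T24 and T72 libraries, for features chosen on the other 11 libraries (red) and for all 33063 features at the floor (grey). The shares are 53.8%, 25.0% and 50.9% in chosen features for T48 replicates 1, 2 and 3, against 15.2%, 10.8% and 15.8% in all features.

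The same readout was made with the other times as the peak. With CK as the peak the left-out library was above all 9 others in 51.5% to 71.1% of the chosen features, with T24 as the peak, where libraries were nearly alike, in 78.7% to 82.6%, and with T72 as the peak in 59.5% to 74.3%. The lowest of these 9 shares, 51.5%, was close to the 50.9% and 53.8% of T48 replicates 3 and 1 and above the 25.0% of T48 replicate 2. The difference between times was not tested.

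Each feature ID ends in a digit between 1 and 4. What this suffix stands for is not given in the file, and it was unevenly spread over the members. Suffix 4 was carried by 66 of the 160 (41.3%, exact 95% binomial interval 33.5% to 49.3%, counting error only), against 24.9% of the features at the floor. The members were picked on the same 12 libraries and are not independent draws, so the interval is no test against that share. With a T48 library left out of the choice, the share ran from 34.5% to 53.1%. Suffix 2 was carried by 53 (33.1%, against 22.9%), suffix 1 by 29 (18.1%, against 27.6%) and suffix 3 by 12 (7.5%, against 24.7%). Members made up 0.803% of the features at the floor with suffix 4, 0.701% of those with suffix 2, 0.318% with suffix 1 and 0.147% with suffix 3. Suffix 4 was carried by 61.5% of the 39 members at 2 times the highest other mean or more, against 34.7% of the 121 below. It also depended on the level: suffix 4 was carried by 48 of the 95 members whose lowest other mean was below 5 CPM (50.5%, against 24.8% of features at that level), and by 18 of the 65 at 5 CPM or more (27.7%, against 24.9%).

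Suffix 4 was also the most frequent among features that met the rule with CK as the peak (31.4%, before suffix 2 with 28.1%). Suffix 1 made up 56.7% of the features that met the rule with T24 as the peak, and suffix 3 made up 42.0% of those with T72 as the peak. Features with no count in all 3 libraries of a group were rarest at T48 for suffix 4 (0.812%, against 7.57% to 8.54% in the other groups). They were rarest at T24 for suffix 1 (0.423%, against 8.18% to 9.74%) and at T72 for suffix 3 (1.27%, against 5.52% to 7.70%). For suffix 2 the share was 5.68% at T24 and 7.23% to 14.4% elsewhere. In features with suffix 4 at the floor, the median log2 level relative to the CK mean was 0.13 in T48 replicate 1 and 0.15 in replicate 3, but -0.09 in replicate 2. The part of the suffix in the 48 h peaks was not tested.

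The place of T48 replicate 2 differed by suffix, a difference that was not tested. Of the 655 features chosen without T48 replicate 2, 348 (53.1%) carried suffix 4, and replicate 2 was above all 9 others in 75 of these (21.6%, against 10.2% of all features at the floor with that suffix). Of the 107 with suffix 2, it was above in 46 (43.0%, against 16.1%). The shares were 24.1% (against 8.45%) for suffix 1 and 17.9% (against 9.01%) for suffix 3. Among the members with suffix 4, replicate 2 was the lowest 48 h library in 31 of 66 and the highest in 13. Among those with suffix 2, it was the lowest in 12 of 53 and the highest in 22.

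**Figure D4:**
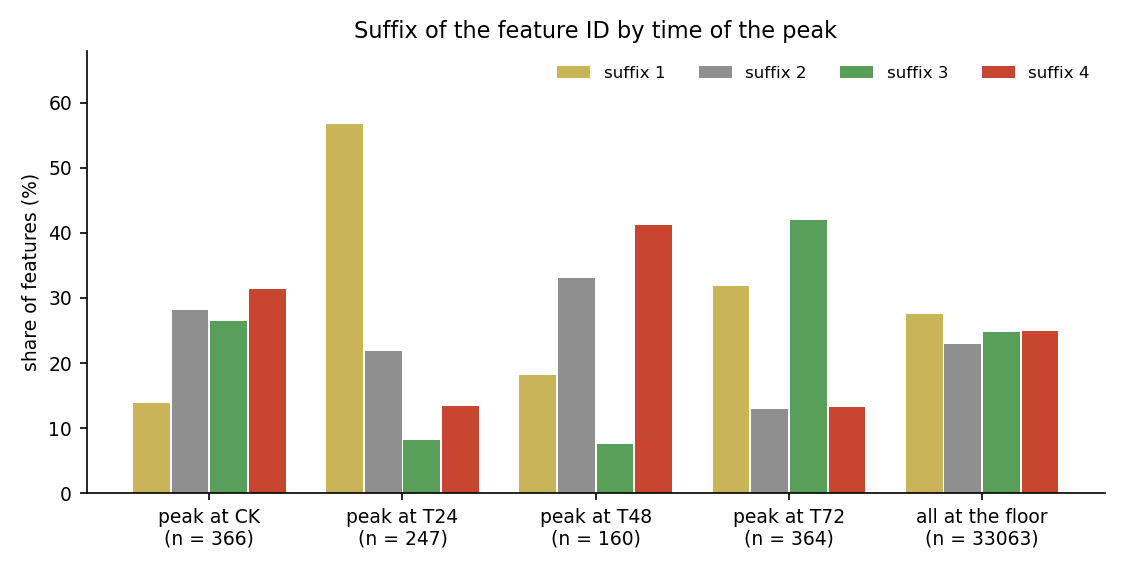
Share (%) of feature IDs ending in 1, 2, 3 or 4 among features that met the same rule with CK, T24, T48 or T72 as the peak, and among all features at the floor. Suffix 4 makes up 41.3% of the 48 h members and 24.9% of all features at the floor, suffix 1 makes up 56.7% of the T24 set, and suffix 3 makes up 42.0% of the T72 set.

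Assembly neighbours gave a further readout outside the rule. The file holds 1 feature per assembly gene, but 47 members belonged to an assembly component, a set of contigs linked by shared sequence, that held at least 1 other feature, and 1 component held more than 1 member. Of the 66 features in these components that were not members, 29 were at the floor. Their T48 mean exceeded all other means in 14 (48.3%), against 23.7% of all features at the floor, and reached 1.5 times the highest other mean in 4, against 3.05% of all features. Only 1 of the 29 had its 3 T48 libraries above all 9 others. The median log2 ratio of T48 to the highest other mean was 0.00 in the neighbours and -0.27 in all features at the floor. Neighbours may share reads with the member of their component, so they are not independent of it. Genes and components were told apart with the suffix kept, so neighbours carry the suffix of their member. The shares over all features were not matched for suffix.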

How the data were processed

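RNA of 12 root libraries was sequenced as paired reads of 150 bp, per the labels' protocols. Per the submitters' processing notes, Trimmomatic trimmed the reads. Not given in the sources used here are the assembler, the aligner, the counting tool and the strand setting. Values deposited are estimated counts per assembled feature (1 of 990048 values above 0 is whole, tolerance 0), and feature IDs have the form that Trinity gives. CPM was computed from column sums. For tests, estimated counts were rounded, filtered with filterByExpr (76273 of 98328 features kept, all 160 members among them) and fitted with edgeR 4.0.16 in R 4.3.3 (TMM, quasi-likelihood, 1 mean per group over all 12 libraries, two-sided contrasts, Benjamini-Hochberg over all features tested). The fit and the rule were run on simulated data with planted changes, as a check of the code only. The peaks simulated for the rule were larger and less spread than most of those here, so nothing about these data is read from it. Alternatives were RLE factors, DESeq2 1.42.0, no filter, a replicate block, 2-group fits, averaged T24 libraries, other rule settings and leaving out each library. Named features were the members with the largest ratio, the highest T48 mean and the lowest T24 and T72 means relative to CK. Members, rules and tests were chosen with earlier results of these data known. Gene lists could not be used without gene names. Intervals and floors cover counting error only.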

Additional observations from a re-analysis of the deposited data

How the results depend on the processing

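The count of 160 features was 142 with TMM and 138 with RLE scaling, but only 115 and 106 of these were members. RLE scaling moved the median log2 T48 over CK of features at the floor from 0.06 to -0.05. The count was 65 with a floor of 5 CPM, 39 with a ratio of 2 and 105 with T24 and T72 within 1.5-fold of CK. Leaving out a library gave 165 to 655, with 290, 655 and 316 without T48 replicates 1, 2 and 3. Suffix 4 (settings added after seeing the data) made up 27.7% with the 5 CPM floor, 61.5% with a ratio of 2 and 34.5% to 53.1% with a library left out, highest without T48 replicate 2. The left-out 48 h library was above the other times in 25.0% to 53.8% of chosen features, 43.3% on average, and in 43.0% of the first 200 by ratio. Of members called higher at T48 than CK (19), T24 (48) and T72 (52), DESeq2 gave 74, 93 and 111 (2388, 1781 and 3117 of all features higher), averaged T24 libraries 0, 0 and 4 (0, 0 and 92 of all features), and fits on the groups compared 0, 70 and 0 (3, 886 and 0 of all features). The zeros thus stand in fits that called few or no features. The count against CK was 9 with no filter, where 149 of 98328 features were called higher. Fits on the groups compared gave 2 members at T24 and 0 at T72 against CK, DESeq2 4 and 13 (12 lower), and averaged T24 libraries 0 and 0. Fits on the groups compared called 3833 features higher and 2956 lower of 63517 at T24, and 743 and 1462 of 59168 at T72. DESeq2 called 4489 and 3746 of 76273 at T24, and 4012 and 5187 at T72. Averaged T24 libraries gave 0 and 0 of 93124 at T24, and 215 and 450 at T72. Leaving out a library gave 2 to 32 against CK (2 without a T24 library or T48 replicate 1, 4 without CK replicate 3 or T48 replicate 3, 6 without CK replicate 1, 10 and 12 without T72 replicate 3 and CK replicate 2, 32 without T48 replicate 2), 2 to 53 against T24 (2 to 5 without a T24 library, 23 and 31 without T48 replicates 1 and 3), 9 to 57 against T72 (9 and 21 without T72 replicates 1 and 3, 27 without T48 replicate 1, 29 to 32 without a T24 library), 0 to 1 at T24 and 0 to 5 at T72 against CK (0 without a T24 library or T72 replicate 1, 2 without T48 replicate 3, 3 without CK replicate 3, 5 without T48 replicate 2). Among all 81745 to 82523 features tested with a library left out, 33 to 1179 were called higher at T48 than CK. Against T24 these were 14 to 419, and against T72 153 to 1118. At T24 against CK, 250 to 2960 were higher and 52 to 2273 lower. At T72 against CK, 500 to 2351 were higher and 610 to 3158 lower. The replicate block gave 3, 27 and 39 members at T48 against CK, T24 and T72, where 46, 187 and 803 of 76273 features were called higher. Replicate numbers were not taken to pair samples: same-numbered libraries deviated together with correlations from -0.217 to 0.21, over 0.1 in 3 of 18 pairs, and in 9 of 36 cases a library was closest to its own number in another group. The causes of these shifts were not tested.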
